A study of Mus musculus with 10 samples.

Results

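Chemokines are small secreted proteins that steer migrating cells, and their receptors are G protein-coupled proteins on the cells that respond. The genes described here are 10 of the 32285 genes in the count tables, chosen by symbol: 7 ligands (Cxcl14, Cxcl12, Cx3cl1, Ccl2, Ccl11, Ccl12 and Pf4) and 3 receptors (Cxcr4, Cx3cr1 and Ccr2). The data were single-cell 3′ RNA profiles of sensory tissue dissected from the inner ears of wild-type CBA/J mice of both sexes at 22 months of age, an age at which this inbred strain was studied as old. Each library pooled several animals, and the tissue was dissociated with collagenase IV. Cochlea and vestibule were each profiled in 5 libraries. No treatment, transgene or mutation separated the groups, so the only contrast was the organ, and all values refer to old animals. Young libraries were not analysed here.

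The second library of each organ repeated the cells of the first. Of its barcodes, 1313 of 1313 in the cochlea and 1633 of 1641 in the vestibule were also in replicate 1, and the profiles of shared barcodes correlated at a median r of 0.953 and 0.968 (0.310 for unlike barcodes in each organ). Replicates 1, 3, 4 and 5 were therefore used, n = 4 per organ. Kept cells numbered 571 to 5070 per cochlear library and 867 to 5438 per vestibular library, 17696 in all, and total unique molecular identifiers (UMIs, counted RNA molecules) ran from 2738036 to 26974948. As each library pools animals, p-values measure the spread between pools.

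In textbook terms, Cxcl12 binds Cxcr4 and holds leukocytes and progenitors in their niches, while Ackr3 binds and removes it. Cx3cl1 (fractalkine) is made as a membrane-anchored protein and binds Cx3cr1 on tissue macrophages, including those of the inner ear. Ccl2 and Ccl12 bind Ccr2 and draw monocytes from blood, Ccl11 (eotaxin) attracts eosinophils through another receptor, Pf4 is the platelet chemokine that some resident macrophages also transcribe, and Cxcl14 is a broadly expressed epithelial chemokine.

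The members lie at several places in the mouse genome (GRCm38, GENCODE M21). Ccl2 (chromosome 11, 82035571 to 82037453), Ccl11 (chromosome 11, 82057823 to 82062955) and Ccl12 (chromosome 11, 82101845 to 82103400) are neighbours on the plus strand. Cx3cr1 (chromosome 9, 119901616 to 120069879, minus strand) and Ccr2 (chromosome 9, 124101950 to 124113557, plus strand) share a chromosome. Cxcl14 lies on chromosome 13 (56288643 to 56296551, minus strand), Cxcl12 on chromosome 6 (117168535 to 117181367, plus strand), Cx3cl1 on chromosome 8 (94772009 to 94782427, plus strand), Cxcr4 on chromosome 1 (128588199 to 128592293, minus strand) and Pf4 on chromosome 5 (90772435 to 90773383, plus strand).

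The 250 bases before the RefSeq transcription start (GRCm38.p6) are shown for 4 members, since the largest organ difference described below was that of Cxcl14 and since Cx3cr1, Ccl12 and Pf4 were found together in macrophages. RefSeq promoters matched 8 of the 10 members, all but Ccl2 and Ccl11. Sequences run 5′ to 3′ on the gene's strand, with capitals marking any match on either strand to TATAAA (the TATA box), CAGCTG (an E-box) or GAGGAAGT (a core bound by the myeloid factor PU.1). They come from chr13:56296552-56296801 (minus strand), chr9:120068297-120068546 (minus strand), chr11:82101595-82101844 (plus strand) and chr5:90772185-90772434 (plus strand).
Cxcl14: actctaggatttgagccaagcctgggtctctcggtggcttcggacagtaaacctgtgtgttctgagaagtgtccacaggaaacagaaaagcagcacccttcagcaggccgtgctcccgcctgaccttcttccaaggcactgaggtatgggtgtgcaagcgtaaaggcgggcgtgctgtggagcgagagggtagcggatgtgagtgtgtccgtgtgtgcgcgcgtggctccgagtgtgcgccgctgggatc
Cx3cr1: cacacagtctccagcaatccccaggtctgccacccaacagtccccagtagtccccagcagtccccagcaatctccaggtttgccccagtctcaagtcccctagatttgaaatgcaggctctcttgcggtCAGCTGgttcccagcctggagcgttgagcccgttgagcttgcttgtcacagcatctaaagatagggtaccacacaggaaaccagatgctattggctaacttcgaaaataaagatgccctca
Ccl12: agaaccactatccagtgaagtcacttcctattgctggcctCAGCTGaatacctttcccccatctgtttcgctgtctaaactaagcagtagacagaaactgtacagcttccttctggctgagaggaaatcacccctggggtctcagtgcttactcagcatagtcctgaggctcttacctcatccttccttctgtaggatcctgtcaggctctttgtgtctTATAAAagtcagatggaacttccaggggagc
Pf4: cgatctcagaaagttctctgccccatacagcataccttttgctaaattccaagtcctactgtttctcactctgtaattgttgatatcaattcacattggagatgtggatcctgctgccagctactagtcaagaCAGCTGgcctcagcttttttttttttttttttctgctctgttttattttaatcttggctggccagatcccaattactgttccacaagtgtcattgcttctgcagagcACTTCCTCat

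The Ccl12 window held CAGCTG at -210 and TATAAA at -31, counted from the start. The Cx3cr1 window held CAGCTG at -121. The Pf4 window held CAGCTG at -117 and GAGGAAGT at -10, the latter on the opposite strand, printed as ACTTCCTC. Of the members not shown, Cx3cl1 had TATAAA at -6, Cxcr4 had it at -30 with an overlapping copy on the other strand at -32, and Cxcl12 and Ccr2 had no match. The Cxcl14 window had none of the 3 motifs. Among the 32851 promoter windows of this length, 12.4% held TATAAA, 13% CAGCTG and 2.44% GAGGAAGT.

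Cell classes were built by clustering the cells of each organ without any chemokine or receptor gene among the variable genes, and clusters were named by marker genes. The "-like" qualifier belongs to every class name used below, since classes were rebuilt here. The hair cell-like class held 153 cochlear and 1991 vestibular cells, with 6 of 6 markers (Myo6, Myo7a, Pou4f3, Tmc1, Kncn and Gfi1) found in both organs. Supporting cells numbered 824 and 553 with 10 and 9 of 10 markers, stromal cells 1605 and 3232 with 7 and 8 of 8, and macrophages 446 and 365 with 7 of 7 in both. Cochlear libraries were low in hair cells, at 14 to 82 per library against 213 to 966 in the vestibule. Clusters that stayed unnamed made up 34.9 to 42.6% of cochlear and 6.82 to 15% of vestibular cells. Levels are given as CPM, the UMIs of a gene per 1000000 UMIs of that class in that library. A class against another class is a description without a test, because the classes came from the same cells.

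The 10 members split by cell class in the same broad way in both organs, apart from Cxcl14. Stromal cells held most UMIs of Cxcl12 (mean over libraries 84.4% in the cochlea and 79.9% in the vestibule) and Ccl11 (90.6% and 95.3%), and had the highest share of Cx3cl1 (66.2%, and 50.6% with a range of 39.0 to 61.3%). Macrophages had the highest mean share of Cx3cr1 (86.3% and 96.8%), Ccl12 (78.4% and 91.3%), Pf4 (67.3% and 90.6%), Ccr2 (56.2% and 83.4%) and Ccl2 (51.5% and 84.0%). In single cochlear libraries the macrophage share ran from 79.1 to 98.4% for Cx3cr1, 52.9 to 94.1% for Ccl12, 12.9 to 90.9% for Pf4, 33.3 to 69.2% for Ccr2 and 25 to 94.1% for Ccl2, so the last 3 were not mostly macrophage transcripts in every library. Cxcr4 had no dominant class. Cxcl14 came mostly from macrophages in the cochlea, 71.5% (62.3 to 76.5% over libraries), and mostly from hair cells in the vestibule, 70.9% (67.8 to 73.3%). These shares also move with how many cells of each class a library held.

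**Figure D1:**
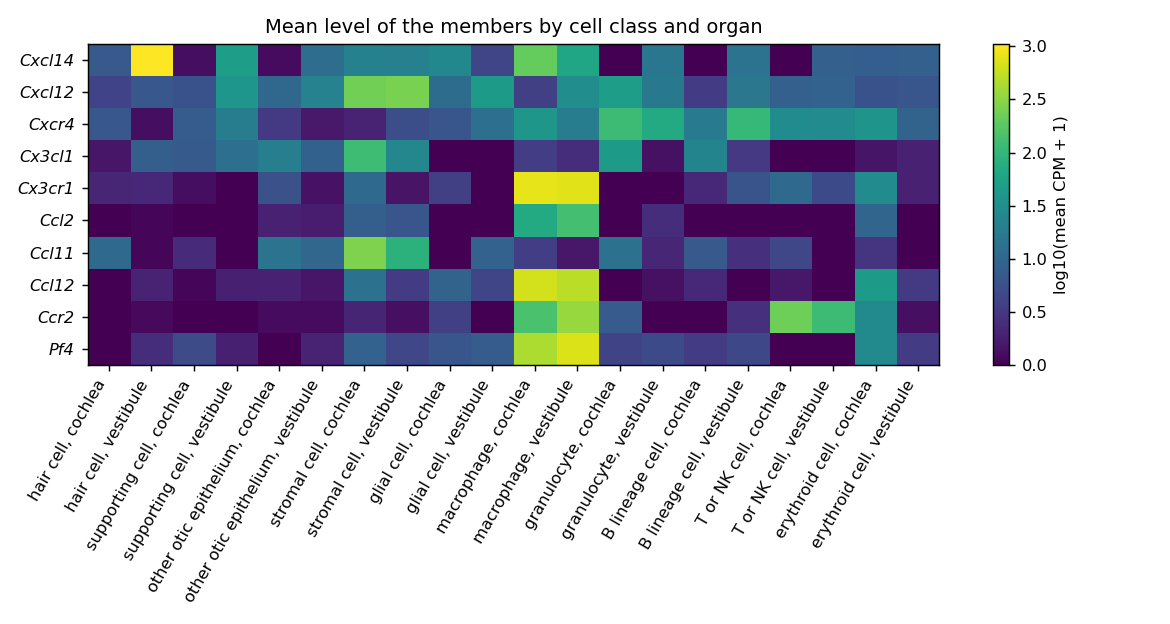
Mean level of each member (rows) in each cell class and organ (columns), coloured by log10(mean CPM + 1) over the libraries with at least 5 cells of the class. Cxcl14 is bright in vestibular hair cells (mean 1053 CPM) and dark in cochlear hair cells (5.97 CPM), stromal columns carry Cxcl12, Cx3cl1 and Ccl11, and macrophage columns carry Cx3cr1, Ccl12, Pf4, Ccr2 and Ccl2.

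Cxcl14 was the member with the clearest difference between organs in hair cells. In vestibular hair cells it measured 1189.7, 938, 1062 and 1023 CPM in replicates 1, 3, 4 and 5. In cochlear hair cells it measured 0, 23.9, 0 and 0 CPM, and all 11 UMIs came from replicate 3. The groups did not overlap. The log2 fold change of vestibule over cochlea was 6.24 ± 0.41 (SE, edgeR quasi-likelihood test, adjusted p = 2.58e-12, n = 4 per organ). It was the only member with enough counts to be tested in hair cells and it passed, where 29.8% of the 7838 genes tested in hair cells passed in either direction and 17.4% passed as higher in the vestibule. Cxcl14 entered this test through its vestibular counts, which favours a call in that direction. The ratio of mean CPM was 176. Replicate 3 of the cochlea decides the fitted size. Without it the other 3 cochlear libraries are all at 0. Against 3 counts over their 309978 hair cell UMIs, the vestibular mean was at least 109-fold higher than in those libraries. That is no bound for the organ, since replicate 3 was at 23.9 CPM. Pooled over all hair cells of an organ, the levels were 1006 CPM in the vestibule and 14.3 CPM in the cochlea.

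The same contrast held in shares of cells. At least 1 Cxcl14 UMI was found in 1709 of 1991 vestibular hair cells, 85.8% (exact binomial 95% interval 84.2 to 87.3%), and in 5 of 153 cochlear hair cells, 3.27% (1.07 to 7.46%). Hair cells had similar depth in both organs, with medians of 3785 and 3463 UMIs, and with every cell thinned to 1000 UMIs the shares were 56.5% and 1.51%. Intervals cover counting error only. Granulocytes and T or NK cells, blood-derived classes, served as a measure of free RNA in each organ. In the vestibule 12 of 362 granulocytes had a Cxcl14 UMI, 3.31% (1.27% thinned, median 3391.5 UMIs), and 8 of 176 T or NK cells, 4.55% (1.98 to 8.76%, 1.00% thinned, median 2931.5 UMIs). In the cochlea 0 of 76 granulocytes (exact upper limit 4.74%) and 0 of 254 T or NK cells had one, which at 3 counts allows a share of up to 1.18% (exact upper limit 1.44%, median 1850.5 UMIs). All 5 cochlear hair cells with a UMI were in replicate 3.

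Within the vestibule, Cxcl14 was higher in type II than in type I hair cells, receptor cells that differ in shape and in the form of their nerve endings. Type II cells (213 cells, a cluster led by Otof, Acbd7 and Pcp4, with Cxcl14 itself next) were at 1821, 1688, 1635 and 1647 CPM. Type I cells (1717 cells) were at 991, 769, 838 and 778 CPM. Type II exceeded type I in 4 of 4 libraries, by a ratio of 1.84 to 2.20, and the ranges did not overlap, which is given as a description. A further 61 vestibular hair cells that could not be typed were at 2577 ± 346 CPM (SD, n = 4), but Cxcl14 itself was among the 3 genes leading that subcluster. In the cochlea, inner hair cells held 8 UMIs in 3 of 74 cells, 4.05% (0.844 to 11.4%), and outer hair cells 3 UMIs in 2 of 79 cells.

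**Figure D2:**
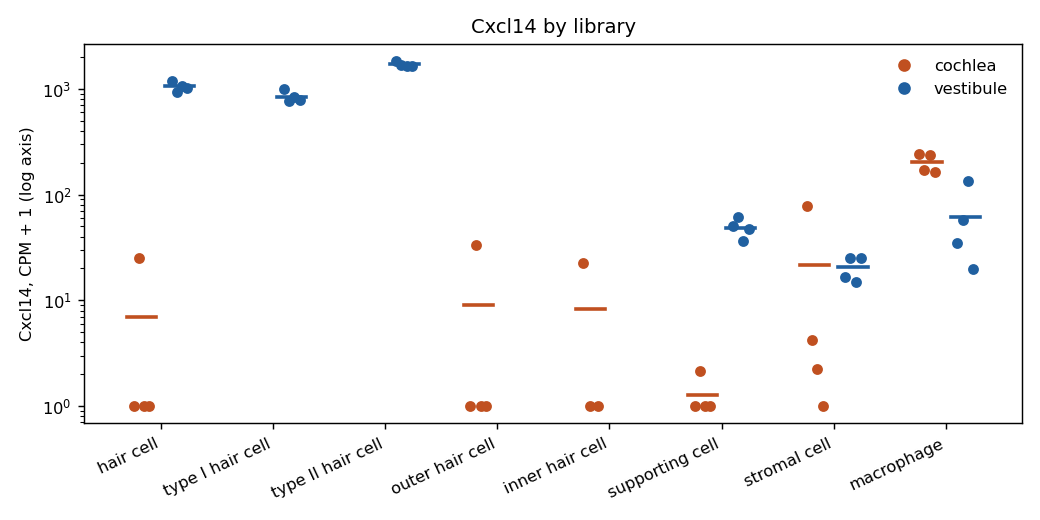
Cxcl14 in each library (points) by cell class and organ, as CPM + 1 on a log axis, with a line at each mean. The 4 vestibular hair cell libraries lie between 938 and 1189.7 CPM, with type II above type I hair cells, and cochlear macrophages (164 to 238 CPM) lie above vestibular macrophages (18.7 to 134 CPM).

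Vestibular supporting cells, the epithelial cells that surround hair cells, also carried more Cxcl14 than cochlear ones. Values were 49.0, 60.1, 35.5 and 46.6 CPM in the vestibule and 0, 1.13, 0 and 0 CPM in the cochlea. The groups did not overlap, and the log2 fold change was 5.81 ± 0.51 (SE, edgeR adjusted p = 2.39e-09). Both cochlear UMIs were in replicate 3, and without it the value was 7.44. A UMI was found in 10.8% of vestibular supporting cells (60 of 553 cells, median 2169 UMIs), above the 3.31% of granulocytes and the 4.55% of T or NK cells. Hair cell markers moved the same way in these cells. Their summed level was 326 to 430 CPM in vestibular supporting cells with 6 of 6 markers found, and 142 to 196 CPM in cochlear ones with 5 of 6 found and Tmc1 at 0. Their part in the result was not tested. In hair cells themselves these markers summed to 2907 to 3508 CPM in the vestibule and 3809 to 4385 CPM in the cochlea.

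In macrophages the direction was the opposite. Cochlear macrophages measured 238, 170, 235 and 164 CPM of Cxcl14 and vestibular macrophages 33.9, 56.2, 134 and 18.7 CPM, with no overlap between the groups. The log2 fold change was -1.69 ± 0.44 (SE), with an unadjusted p of 0.00196 and an edgeR adjusted p of 0.102, so it did not pass over all genes. A Cxcl14 UMI was found in 24.9% of cochlear and 13.4% of vestibular macrophages, and in 11.3% and 6.17% after thinning. Few genes passed in macrophages at all, 0.737% of 3121 in either direction (0.449% as higher in the cochlea). Hair cell markers in macrophages moved the other way, at 18.8 to 43.3 CPM in the cochlea and 46.6 to 134 CPM in the vestibule, and their part in the result was not tested. The organ difference in hair cells exceeded that in macrophages by 8.01 ± 0.54 on the log2 scale (SE, edgeR with the library as a block, adjusted p = 7.33e-45), where 10.2% of 7333 genes passed. So small a p-value leans on a dispersion shared across genes, not on the spread between pools alone. This comparison is given for Cxcl14 only, whose 2 signs were already known from these data. Most of it comes from hair cells (6.24). It therefore does not show a difference in macrophages, which had an edgeR adjusted p of 0.102. Cochlear hair cells held no Cxcl14 UMI outside replicate 3. Stromal cells showed no such order, at 77.6, 3.18, 1.22 and 0 CPM in the cochlea and 15.6, 24.2, 14.0 and 24.3 CPM in the vestibule (log2 fold change 1.78 ± 1.25, SE, edgeR adjusted p = 0.438). Cochlear replicate 1 sets that value, and without it the difference was 3.47 (edgeR adjusted p = 2.46e-06). That run drops the library that goes against the difference, so its p-value is not support for one. The share of vestibular stromal cells with a UMI, 4.15%, lay within the interval of the granulocytes (1.72 to 5.72%), which were deeper (median 3391.5 against 1831.5 UMIs). After thinning, the stromal share was 2.00%, above the 1.27% of granulocytes and the 1.00% of T or NK cells.

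**Figure D3:**
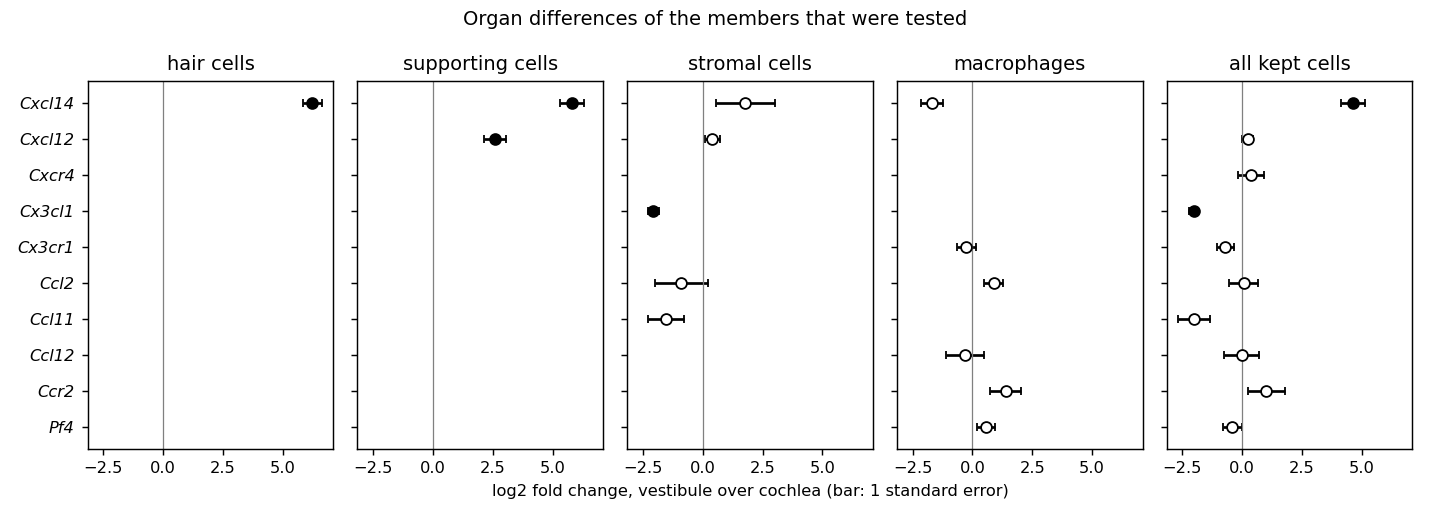
Log2 fold change of vestibule over cochlea for each member tested in hair cells, supporting cells, stromal cells, macrophages and all kept cells, with bars of 1 standard error and filled points past the adjusted threshold of 0.05. Cxcl14 lies right of 0 in hair cells (6.24) and supporting cells (5.81) and left of 0 in macrophages (-1.69), and Cx3cl1 lies left of 0 in stromal cells (-2.07).

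Cxcl12 was a stromal ligand in both organs, with no organ difference past the test in stromal cells. Stromal cells measured 422, 245, 94.1 and 199 CPM in the cochlea and 225, 258, 299 and 242 CPM in the vestibule. The cochlear range spans the vestibular one, and the log2 fold change was 0.40 ± 0.32 (SE, edgeR adjusted p = 0.475). Shares of stromal cells with a UMI were 35.8% (33.5 to 38.2%) and 35.4% (33.7 to 37.0%). Within the cochlea the level differed more between clusters than between organs. The cluster led by Ogn, Coch and Cxcl12 (365 cells) was at 2107 ± 1097 CPM (SD, range 1381 to 3740), and the clusters led by Dcn, Ccl11 and Cp and by Otor, Emilin2 and Emcn were both at 104 CPM. In the vestibule the cluster led by Slc7a11, Dcn and Slc13a4 (1435 cells) was highest at 410 ± 39.0 CPM.

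Supporting cells showed an organ difference in Cxcl12 at a lower level. They measured 10.9, 8.46, 0 and 0 CPM in the cochlea and 62.6, 32.9, 24.4 and 31.1 CPM in the vestibule, without overlap. The log2 fold change was 2.59 ± 0.48 (SE, edgeR adjusted p = 1.95e-04), and without cochlear replicate 3 it was 3.72. A UMI was found in 11% of vestibular and 1.94% of cochlear supporting cells, beside 6.63% and 5.26% of granulocytes. Both members tested in supporting cells, Cxcl14 and Cxcl12, passed as higher in the vestibule, where 28.9% of 6185 genes passed in either direction and 17.2% as higher in the vestibule. Neither had the counts for this test in the cochlea, so both entered it through the vestibule, which favours calls in that direction. Stromal markers summed to 476 to 1284 CPM in vestibular and 104 to 398 CPM in cochlear supporting cells, all 8 markers found in both. Their part in the result was not tested. Ackr3, the scavenging receptor for Cxcl12, was also higher in vestibular supporting cells, at a mean of 58.4 against 18.8 CPM (log2 fold change 1.73 ± 0.31, SE, edgeR adjusted p = 9.57e-05). Ackr3 too lacked the counts for this test in the cochlea. It entered through the vestibule, which favours a call in that direction.

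Cxcr4, the signalling receptor for Cxcl12, was sparse. It was highest in granulocytes and B lineage cells, at 119 ± 96.4 CPM in cochlear granulocytes (SD, n = 2 libraries), 105 ± 57.9 CPM in vestibular B lineage cells and 69.9 ± 50.2 CPM in vestibular granulocytes (n = 4). These classes do not differ beyond their spread. Macrophages measured 83.2, 33.2, 37.6 and 0 CPM in the cochlea and 0, 27.0, 21.8 and 21 CPM in the vestibule. Vestibular hair cells held 1 UMI in 1991 cells. Cochlear hair cells held 7 UMIs in 7 of 153 cells, all of them inner hair cells. Over all kept cells the log2 fold change was 0.36 ± 0.53 (SE, edgeR adjusted p = 0.691).

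Cx3cl1 was the stromal member with an organ difference that passed the test. Stromal cells measured 171, 95.6, 139 and 80.5 CPM in the cochlea and 26.0, 19.5, 27.4 and 22.8 CPM in the vestibule, so every cochlear library lay above every vestibular one. The log2 fold change was -2.07 ± 0.23 (SE, edgeR adjusted p = 1.42e-06). Of the 5 members tested in stromal cells it was the only one called, where 17.7% of 10035 genes passed in either direction and 8.94% as higher in the vestibule and 8.77% as higher in the cochlea. A UMI was found in 22.1% of cochlear and 4.89% of vestibular stromal cells, with similar median depths of 1788 and 1831.5 UMIs, and in 8.07% and 2.01% after thinning. Over all kept cells the difference was -2.03 ± 0.20 (edgeR adjusted p = 3.89e-05).

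The stromal classes of the organs were made of different clusters. In the cochlea the cluster led by Otor, Emilin2 and Emcn (234 cells, median 11379 UMIs) was highest in Cx3cl1, at 223 ± 142 CPM (SD, n = 4), followed by those led by Ogn, Coch and Cxcl12 (99.3 ± 13.8 CPM) and by Dcn, Ccl11 and Cp (73.2 ± 25.7 CPM). In the vestibule the cluster led by Emilin2, Cavin2 and Dcn was highest at 56.3 ± 7.90 CPM, and that led by Ucma, Otor and Coch was lowest at 5.77 CPM. An unnamed cochlear cluster with the same leading genes (651 cells) was at 154 ± 21.2 CPM and lay outside the stromal class. Without the cochlear Otor cluster the organ difference was -1.04 ± 0.25 (SE, edgeR adjusted p = 0.00572). Outside stroma, vestibular hair cells measured 9.58, 7.23, 5.99 and 6.46 CPM, and cochlear hair cells held 1 UMI. Supporting cells were also higher in the vestibule, at 10.4 to 13.6 CPM (23 UMIs) against 4.51 to 7.26 CPM (19 UMIs). Other otic epithelium had the order of stroma, at 12.4 to 23.5 CPM in the cochlea and 3.65 to 9.77 CPM in the vestibule. Cx3cl1 was not tested in these classes.

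Ccl11 was found almost only in stromal cells, at 192.5, 380, 61.7 and 465 CPM in the cochlea and 143, 64.6, 22.4 and 112 CPM in the vestibule. These ranges overlap, since cochlear replicate 4 lay below vestibular replicates 1, 3 and 5. The log2 fold change was -1.54 ± 0.75 (SE, edgeR adjusted p = 0.255). Same-numbered cochlear and vestibular stromal libraries deviated together in 4 of 4 pairs (correlations 0.153 to 0.186). Hair cells (0.0187 to 0.109), supporting cells (0.0855 to 0.296) and all kept cells (0.0536 to 0.279) were also positive in 4 of 4 pairs, but macrophages were not. Unlike-numbered pairs were not compared. With the replicate number as a block the stromal Ccl11 value was -1.49 ± 0.29 (SE, edgeR adjusted p = 0.00353). The share of stromal cells with a Ccl11 UMI was 40.5% (650 of 1605 cells) in the cochlea and 2.69% (87 of 3232 cells) in the vestibule, or 31.5% and 1.66% after thinning. The cochlear cluster led by Dcn, Ccl11 and Cp (706 cells) carried 1577 ± 394 CPM, although that cluster is itself led by Ccl11. The vestibular cluster led by Emilin2, Cavin2 and Dcn (248 cells) carried 478 ± 211 CPM.

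**Figure D4:**
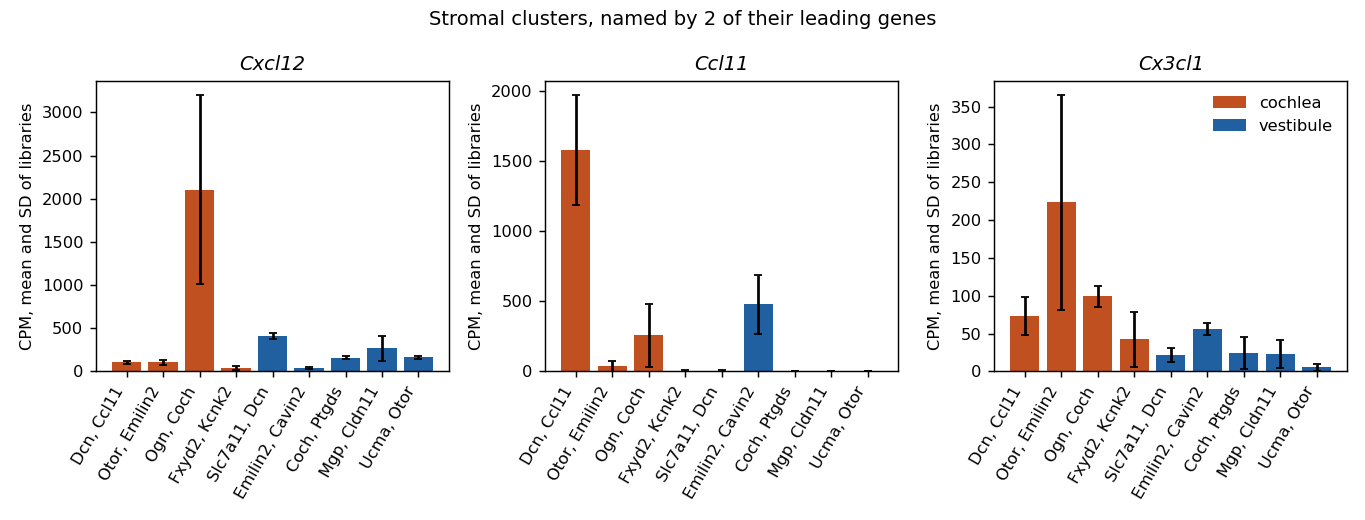
Cxcl12, Cx3cl1 and Ccl11 in each stromal cluster, named by 2 of its leading genes, as mean CPM with the SD over libraries. Cxcl12 peaks in the cochlear cluster led by Ogn and Coch (2107 CPM), Cx3cl1 in the cochlear cluster led by Otor (223 CPM) and Ccl11 in the cochlear cluster led by Dcn and Ccl11 (1577 CPM).

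Cx3cr1, the receptor for Cx3cl1, was a macrophage gene in both organs. Cochlear macrophages measured 671, 586, 855 and 1098 CPM and vestibular macrophages 1693, 390.2, 479 and 534 CPM. The highest vestibular library, replicate 1, held only 10 macrophages. The ranges overlap, and the log2 fold change was -0.26 ± 0.39 (SE, edgeR adjusted p = 0.893). A UMI was found in 247 of 446 cochlear macrophages, 55.4% (50.6 to 60.1%), and 157 of 365 vestibular ones, 43.0% (37.9 to 48.3%). These intervals pool cells and cover counting error only, and 360 of the cochlear cells came from replicate 3. By library the shares overlapped, at 35.0 to 80.8% in the cochlea and 38.3 to 51.2% in the vestibule. The cochlear class was not uniform. A cluster of 57 cells led by Lyz2, Gpnmb and Fabp5 was at 17.3 CPM of Cx3cr1 and the other 389 cells, led by C1qa, Lyz2 and C1qc, were at 1514 CPM. Vestibular supporting cells held 0 Cx3cr1 UMIs in 553 cells, which at 3 counts allows a share of cells with a UMI of up to 0.542% (exact upper limit 0.665%).

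The monocyte-attracting ligands and their receptor were also found in macrophages, with wide spread between libraries. Ccl12 measured 88.7, 524, 423 and 1615 CPM in cochlear macrophages and 169, 676, 461 and 716 CPM in vestibular ones (log2 fold change -0.32 ± 0.79, SE, edgeR adjusted p = 0.973). It was found in 32.1% of cochlear and 30.4% of vestibular macrophages. Ccl2 measured 88.7, 72.1, 37.6 and 75.7 CPM in the cochlea and 135, 231, 79.9 and 72.3 CPM in the vestibule. That difference of 0.89 ± 0.41 had an unadjusted p of 0.0460 and an edgeR adjusted p of 0.420. Ccr2 measured 99.8, 123, 18.8 and 328 CPM in the cochlea and 339, 299, 160 and 620 CPM in the vestibule (1.39 ± 0.64, adjusted p = 0.447). Ccr2 was also a T or NK cell transcript, at 225 ± 65.5 CPM in the cochlea and 117 ± 9.42 CPM in the vestibule.

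Stromal cells also held UMIs of Ccl2 and Ccl12. Their mean share of Ccl2 UMIs was 41.8% in the cochlea (0 to 75%) and 12.8% in the vestibule (0 to 45.8%), and that of Ccl12 was 17.1% (5.84 to 47.1%) and 6.02% (0.952 to 16.7%). Stromal Ccl2 levels were low, at 0, 13.6, 7.34 and 7.66 CPM in the cochlea and 0, 0.749, 0.559 and 20.5 CPM in the vestibule. Vestibular replicate 5 stood alone, with 27 UMIs in 3 cells. The log2 fold change was -0.89 ± 1.12 (SE, edgeR adjusted p = 0.692), and without that library it was -3.61 (adjusted p = 8.22e-04). The second run drops the library that goes against the difference, so its p-value is not support for one. Macrophage markers in stromal cells summed to 21.7 to 146 CPM in the cochlea and 8.34 to 38.2 CPM in the vestibule, and their part in the result was not tested.

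Pf4 measured 277, 405.5, 338 and 770 CPM in cochlear macrophages and 1219, 538, 752 and 385 CPM in vestibular ones. The ranges overlap and the log2 fold change was 0.55 ± 0.37 (SE, edgeR adjusted p = 0.636). A Pf4 UMI was found in 33.2% of cochlear (28.8 to 37.8%) and 50.1% of vestibular (44.9 to 55.4%) macrophages. In 1 library most Pf4 UMIs lay outside macrophages. In cochlear replicate 4, 225 of the 278 Pf4 UMIs lay in 1 cell of an erythroid cluster, 80.9% of the library's Pf4, and only 12.9% lay in macrophages.

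None of the 6 members tested in macrophages (Cxcl14, Cx3cr1, Ccl2, Ccl12, Ccr2 and Pf4) passed with edgeR, where 0.737% of 3121 genes passed. Of these members 2 had an unadjusted p under 0.05 (Cxcl14 and Ccl2), and DESeq2 called 1 (Cxcl14, -1.71, adjusted p = 0.0336). Libraries held between 10 and 360 macrophages, so most single-library values rest on few cells. Without the filter on low counts Cxcl14 (-1.60, adjusted p = 0.00263) and Ccr2 (1.45, adjusted p = 0.00951) passed with edgeR. DESeq2 and the run without the filter also called more genes in all than the main run. Stromal markers in macrophages summed to 169 to 747 CPM in the cochlea and 1019 to 2041 CPM in the vestibule, with 8 of 8 found in both, and their part in these values was not tested.

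**Figure D5:**
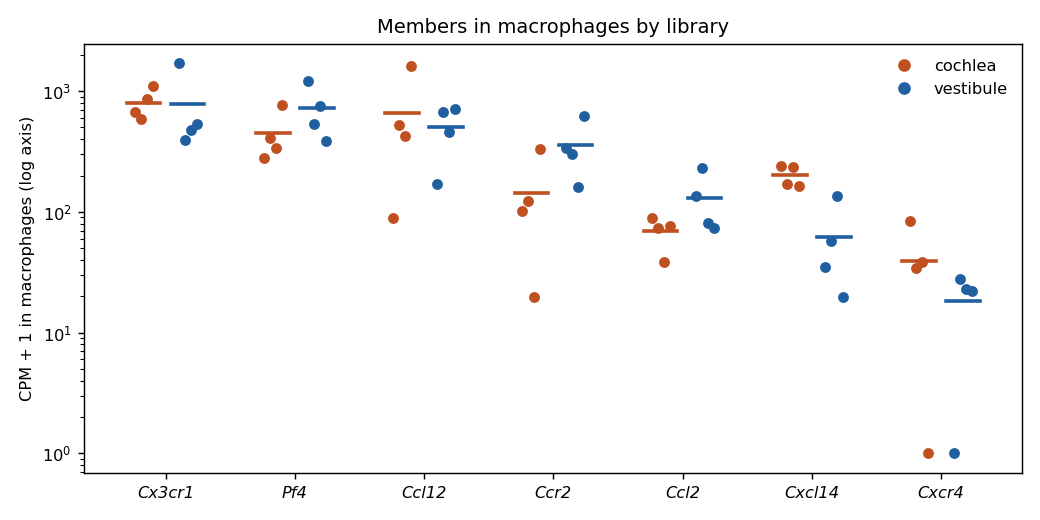
Members in macrophages, 1 point per library, as CPM + 1 on a log axis. Lines are means. Cochlear and vestibular points overlap for Cx3cr1, Pf4, Ccl12, Ccr2, Ccl2 and Cxcr4, and those of Cxcl14 do not.

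In libraries with over 40 macrophages, Pf4 was read more often in cells with a Ccl12 UMI than in those without. In cochlear replicate 3 (360 macrophages), 57.3% of cells with a Ccl12 UMI also had a Pf4 UMI, against 22.6% of cells without. In vestibular replicates 3, 4 and 5 the paired shares were 69.1% against 39.9%, 88.0% against 47.2% and 78.6% against 25%. In the smaller libraries they were 62.5% against 33.3% and 72.7% against 20% (cochlear replicates 4 and 5), and the order turned in cochlear replicate 1 (14.3% against 15.2%, 40 macrophages) and vestibular replicate 1 (66.7% against 71.4%, 10 macrophages). Ccl12 was read more often in cells with a Ccl2 UMI, at 69.6% against 27.1% in cochlear replicate 3 and 73.7% against 23.6% in vestibular replicate 3, and less often in vestibular replicate 1 (0% against 33.3%), where 1 cell had a Ccl2 UMI. Cx3cr1 and Ccr2 gave no single order. Ccr2 was in 9.09% of Cx3cr1-positive and 16% of other cells in cochlear replicate 3, and in 25.7% and 16% in vestibular replicate 3. Cell depth was not matched in these shares, which are given as a description.

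The genes whose class pattern was most like each member were sought over the 23 class and organ means, among 9594 genes, by Pearson correlation of log2(CPM + 1), given as a description. The points share libraries and depth. Cxcl14 was closest to Bmp2 (r = 0.756), Elfn1 (0.688) and Tex52 (0.684). Cxcl12 was closest to Islr (0.897), Zic5 (0.844) and Prrx1 (0.840), Cx3cl1 to Lepr (0.773), Ebf2 (0.757) and Fzd2 (0.748), and Ccl11 to Slco1c1 (0.861), Ebf2 (0.857) and Gm29683 (0.854). Cxcr4 was closest to Apbb1ip (0.879), Ncf4 (0.834) and Fmnl1 (0.83).
The macrophage members had closer neighbours. Cx3cr1 was most like Adgre1 (0.946), Stab1 (0.939) and Msr1 (0.929), Ccl2 like Stab1 (0.953), Tmem119 (0.940) and Mrc1 (0.937), and Ccl12 like Fcgr1 (0.936), Trem2 (0.926) and Msr1 (0.926). Ccr2 was most like Ms4a6b (0.945), Ifi202b (0.923) and Otulinl (0.904), and Pf4 like Csf1r (0.926), Siglec1 (0.922) and Ccl12 (0.922). Adgre1, Mrc1 and Csf1r were markers used to name macrophages.

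Of 50 other chemokine and receptor genes in the tables, most had too few counts to be tested. In stromal cells 3 of 6 tested passed, beside 17.7% of all genes. Cxcl13, the B cell attractant, was higher in the cochlea (81.7 against 2.81 CPM, log2 fold change -4.48 ± 0.56, SE, edgeR adjusted p = 2.38e-04). Cxcl13 lacked the counts for this test in vestibular stromal cells. It entered through the cochlea, which favours a call in that direction. Ccl19, a ligand of Ccr7, was also higher in the cochlea (55.4 against 20.9 CPM, -1.32 ± 0.27, adjusted p = 0.00149). Cxcl16, a membrane-anchored ligand like Cx3cl1, was higher in the vestibule (15.6 against 25.5 CPM, 0.89 ± 0.22, adjusted p = 0.00675). In supporting cells 1 of 2 tested passed, beside 28.9% of all genes. This was Ackr3, which entered the test through its vestibular counts. In hair cells 0 of 2 passed and in macrophages 0 of 9, beside 29.8% and 0.737% of all genes, with 1 unadjusted p under 0.05 in each. Over all kept cells 3 of 25 tested passed, beside 24.7% of all genes. Cxcl13 (-2.98 ± 0.78, SE, edgeR adjusted p = 0.0208) and Ccl19 (-1.89 ± 0.48, adjusted p = 0.0160) were higher in the cochlea, and Ackr4, a scavenging receptor, was higher in the vestibule (1.57 ± 0.39, adjusted p = 0.0136).

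The other family genes with the highest levels in macrophages were Ccl8, Ccl6, Cxcl16, Ccl5 and Ccr1. Ccl8 was at 775 ± 909 CPM (SD) in the cochlea and 63.1 ± 75.5 CPM in the vestibule, a log2 fold change of -3.31 ± 1.47 (SE) that did not pass (edgeR adjusted p = 0.459). Ccl6 was at 221 ± 249 and 302 ± 143 CPM, Cxcl16 at 270.5 ± 120.3 and 134 ± 46.4 CPM, Ccl5 at 112 ± 138 and 234 ± 351 CPM, and Ccr1 at 159 ± 126 and 107 ± 44.6 CPM. In stromal cells the 5 with the highest mean over both organs were Ccl27a, Cxcl13, Ccl19, Ackr3 and Cxcl16. Ccl27a was at 52.7 ± 9.87 and 34.6 ± 7.19 CPM. Stromal Ackr3 was at 30.4 ± 21.3 and 29.5 ± 7.76 CPM.

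Over all kept cells of a library, all 10 members were tested and 2 passed, Cxcl14 as higher in the vestibule (4.62 ± 0.51, SE, edgeR adjusted p = 1.32e-04) and Cx3cl1 as higher in the cochlea, where 24.7% of 14530 genes passed in either direction. Ccl11 was at -2.02 ± 0.67 (adjusted p = 0.0570). These whole-library values move with the share of each class, as hair cells made up 1.62 to 4.38% of cochlear and 17.8 to 24.6% of vestibular cells.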

How the data were processed

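Droplet libraries (10x Genomics 3′ v3.1) were analysed from the UMI counts the authors deposited, raw whole numbers per gene and barcode that had not been normalised. Per the file headers, matrices came from Cell Ranger 5.0.1 (replicates 1 and 2) and 6.1.2 (replicates 3, 4 and 5), and the submitters' processing notes name Cell Ranger 6.1.2, Seurat and mm10. Barcodes were kept from 200 genes and 1000 UMIs upward if mitochondrial UMIs made up under 25%. Each organ was clustered with Seurat 5.3.0 in R 4.3.3 (2000 variable genes without chemokine or receptor genes, 30 components, resolution 1, and 0.5 for hair cells). A cluster was named when 3 markers of 1 class were enriched, and stayed unnamed when markers of another class led it. Hair cell subclusters holding supporting cell markers were set aside. Scrublet in scanpy 1.11.5 marked 1 to 23 cells per library, too few to be taken as working, so doublets were not removed.

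Sums of UMI counts per library and class (5 or more cells) were compared between organs in edgeR 4.0.16 (quasi-likelihood, TMM factors, filterByExpr, Benjamini-Hochberg over all genes tested, threshold 0.05). DESeq2 1.42.0 was an alternative. The tests were tested on simulated data. Replicate numbers were checked for pairing by the correlation of deviations, which exceeded 0.1 in 4 of 4 pairs only in stromal cells. The text names all members, up to 3 other family genes per direction and test and the 5 highest in macrophages and stroma, and the 3 genes most like each member. Members and lists were chosen with earlier results of these data known.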

Additional observations from a re-analysis of the deposited data

Results flagged for a closer look

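In 66 groups of 4 libraries with at least 10 UMIs, 8 had 1 library far from the other 3. The cut-off marks about 1 in 20 groups of normally distributed values. These levels include many at 0, from libraries of unequal size, so how many groups chance would mark here is not known. In cochlear cells, Cxcl14 was highest in replicate 3 in hair cells (23.9 CPM, the others at 0) and highest in replicate 1 in stromal cells (77.6 CPM, the next at 3.18 CPM). Replicate 3 was also highest for Cxcl12 (10.8 CPM) and Cx3cl1 (10.1 CPM) in cochlear macrophages, the others being at 0. Cx3cr1 was lowest in replicate 1 in cochlear stromal cells (3.11 CPM, the next at 12.0 CPM), and over all kept cochlear cells Cxcl12 was lowest in replicate 4 (35.5 CPM, the next at 69.8 CPM). In the vestibule, Cx3cr1 in macrophages was highest in replicate 1 (1693 CPM, the next at 534 CPM), a library with 10 macrophages, and Ccl2 in stromal cells was highest in replicate 5 (20.5 CPM, the next at 0.749 CPM).

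The organ difference of Cxcl14 differed between cell classes. It was 6.24 in hair cells and -1.69 in macrophages on the log2 scale, each class fitted alone. A model of both classes gave a difference of 8.01 (edgeR with the library as a block, adjusted p = 7.33e-45). That p-value leans on a dispersion shared across genes, and cochlear hair cells held no Cxcl14 UMI outside replicate 3. Most of the difference comes from hair cells, and that in macrophages alone did not pass (edgeR adjusted p = 0.102).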

How the results depend on the processing

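Few macrophages (10 to 360 per library) and few cochlear hair cells (14 to 82) limit what these counts can show, and the cause of each shift below was not tested. The calls of Cxcl14 in hair cells (log2 fold change 5.92 to 6.49, and 13.25 without cochlear replicate 3, a fitted value that is no bound) and supporting cells, and of Cx3cl1 in stromal cells (-2.25 to -1.93, -1.14 with both organs clustered together and -1.04 without the cochlear Otor cluster), passed under every alternative run, as did Cxcl12 in supporting cells wherever it was tested. Counts of genes passing moved by over 1.5 times as follows. Under 10% mitochondrial UMIs they were 1377 in hair cells and 898 in supporting cells. With no filter on low counts they were 3122 in supporting cells, 2732 in stromal cells and 306 in macrophages. In macrophages (23) they were also 61 with DESeq2, 8 at resolution 2, 8 with both organs clustered together, 13 without the cluster led by Mmp12 (chosen after seeing the data, as were the other changes of clusters), and 5 to 127 with each library left out. With the replicate block the counts were 2256 in hair cells, 2326 in supporting cells, 2230 in stromal cells, 11 in macrophages and 4111 in all kept cells. The block brought Ccl11 in stromal cells (-1.49) and in all kept cells (-1.89, adjusted p = 0.0342) past the threshold and turned Ccl2 in all kept cells to -0.031, none of the members' other calls changing. Signs also turned for Cxcl12 in stromal cells with both organs clustered together (-0.13) and without the cochlear Otor cluster (-0.082), for Ccl12 in macrophages at resolution 2 (0.21), for Cx3cr1 there (0.15), and for Pf4 in macrophages under 10% mitochondrial UMIs (-0.43) and with both organs clustered together (-0.21). With each library left out, Ccl12 ran from -0.70 to 0.56 in macrophages and from -0.52 to 0.43 in all kept cells, and Ccl2 in all kept cells from -0.36 to 0.51. None of these passed either way. Ccr2 in macrophages passed with no low-count filter and under 10% mitochondrial UMIs (3.75, adjusted p = 0.00270). Cxcl14 in macrophages passed with DESeq2, with no filter, under 10% mitochondrial UMIs (-1.99) and without vestibular replicate 4 (-2.34, adjusted p = 0.0375). Ccl11 in stromal cells passed without the cochlear Otor cluster (-2.28), and in all kept cells with DESeq2 (-1.99) and without cochlear replicate 4 (-2.32). Cx3cr1 in all kept cells passed without vestibular replicate 5 (-1.07).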
